A study of Mus musculus with 18 samples.

Results

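The genes described here encode the constitutive proteasome, meaning the 20S core, the 19S regulatory particle, the activators that cap the core and the chaperones that assemble it. Members were the loci whose gene symbol holds *Psma*, *Psmb*, *Psmc*, *Psmd*, *Psme* or *Psmg* and a number, without the immunoproteasome genes *Psmb8*, *Psmb9* and *Psmb10* and without pseudogenes. There were 48 member loci of 44 genes among 168136 loci, of which 52179 carried a symbol. Of the members, 42 loci, 1 for each of 42 genes, were tested along with all other loci that had a mean normalised count of at least 10 (15579 in all).

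Wild-type Neuro2A cells, a mouse neuroblastoma line, were transfected with a 25 nM biotinylated mimic of *miR-92b*, with a biotinylated scrambled RNA (Scr), or were left untransfected (control). Each condition was sampled as nuclear and as whole cell lysate, which gave 6 groups of 3 samples. RNA was sequenced from poly(A)-selected libraries, and for *miR-92b* and Scr it was RNA that streptavidin beads held. Control samples come from cells with no mimic, and it is not assumed here that their RNA was also held by beads. The study used this design to find RNAs bound by *miR-92b* in the nucleus. All 18 samples come from 1 cell line, and the labels do not say whether samples of a group were separate cultures, so p-values measure the spread between these samples.

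The proteasome is the protease that degrades ubiquitin-tagged proteins in the cytosol and the nucleus. Proteins are bound and unfolded by the 19S particle, whose ring of ATPases threads them into the barrel of the 20S core, where β subunits cut them between outer rings of α subunits. The subunits are needed in fixed ratios, and the transcription factor Nfe2l1 raises their genes together when proteolysis is impaired. The mRNAs are made in the nucleus and translated in the cytoplasm, and a miRNA such as *miR-92b* pairs with mRNAs mainly through its seed.

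The mature mouse *miR-92b-3p* sequence from RefSeq (GRCm38.p6, chr3:89227126-89227147, minus strand) is shown first, with its seed (bases 2 to 8) in capitals, because a pulldown with this mimic can be set against seed matches in the members. The next 2 sequences, read from GENCODE M21 transcripts, are the only seed matches found in the members' coding sequence (7 bases) or 3′ UTR (6 bases), with the match in capitals.

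mmu-miR-92b-3p: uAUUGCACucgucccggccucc

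Psma1 coding sequence, bases 543 to 549 in capitals: gaatttatggaGTGCAATttggatgaact

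Psme3 3′ UTR, bases 1281 to 1286 in capitals: gagttggtctcTGCAATtagcctgccag

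None of the 44 member genes held the 7-base seed match GTGCAAT in a 3′ UTR, against 818 of 9889 tested loci of a single gene (8.27%). The 6-base match TGCAAT was found in the 3′ UTR of 1 member, *Psme3*, against 2791 of those loci (28.2%). The 7-base match lay in the coding sequence of 1 member, *Psma1*, against 573 (5.79%). The longest 3′ UTR of a member gene had a median of 295 bases, and that of the tested loci 1235 bases.

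Nfe2l1 binds antioxidant-response-type elements in proteasome promoters. Of the 6 members with such a motif close to the start, 3 core genes called lower in nuclear samples are shown, as the 60 bases before the transcription start in RefSeq GRCm38.p6. The others were *Psmd12*, which was called lower too, and *Psmd9* and *Psmg4*, which were not called. Capitals mark the motif TGANNNNGC on the printed strand.

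Psmb3, chr11:97703374-97703433, plus strand: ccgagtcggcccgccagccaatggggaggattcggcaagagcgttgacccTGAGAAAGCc

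Psmb5, chr14:54617996-54618055, minus strand: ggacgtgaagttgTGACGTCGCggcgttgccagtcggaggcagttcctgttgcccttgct

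Psmb6, chr11:70525297-70525356, plus strand: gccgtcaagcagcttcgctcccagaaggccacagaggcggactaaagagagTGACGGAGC

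On either strand of the window from 250 bases before to 50 bases after the start, TGANNNNGC occurred in 21 of the 36 member genes with a window (58.3%). It occurred in 12174 of 27025 genes (45.0%) and in 3968 of 8271 tested single-gene loci (47.97%). Within the 60 bases before the start the counts were 6 of 36 members (16.7%) and 1020 of 8271 tested loci (12.3%). CCAAT, the motif of the factor NF-Y, was present in 13 of 36 members (36.1%) and 11096 of all genes (41.1%). The motif was thus a common one, and these matches are a description of the letters and not of bound sites.

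Symbol-bearing loci held 3752991 to 22920038 reads in a sample. Of the 14 neuroblastoma markers, 12 had a mean of at least 10 normalised counts and their sum lay between 5558 and 7358 in every sample, while *Tubb3* matched no locus. None of 4 fibroblast and none of 4 immune markers reached a mean of 10, but 3 of 4 glial markers and 1 of 2 endothelial markers did. For 6 cytoplasmic markers the summed normalised count was 5788 to 28348 in nuclear samples and 78309 to 314189 in whole cell lysates, and the sum of 5 nuclear RNAs, of which 4 reached a mean of 10 and *Miat* did not, was 117528 to 150215 and 32720 to 85155. In a principal component plot, nuclear Scr samples 2 and 3 and whole cell *miR-92b* sample 3 stood apart, and some results are given without them as well.

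Proteasome genes were lower in nuclear than in whole cell samples. With Scr and *miR-92b* these are samples of RNA held by beads, so level in the lysate and recovery by beads cannot be told apart there. Averaged over the 3 treatments, 22 of 42 members (limma, Benjamini-Hochberg adjusted p below 0.05 over all 15579 loci) were lower in nuclear samples and none was higher. On recovered reads edgeR called 23 members lower and DESeq2 26, and neither called any higher. Of all loci tested, 15.8% were called lower and 15.3% higher. The median log2 fold change of the members was -0.70, and that of all loci was 0.14, so relative to the typical locus the members were lower still. A nuclear level is a share of the nuclear library, so less of a transcript and more of other RNA cannot be told apart. Without the 3 samples that stood apart, 21 members were called lower and none higher, and 13.3% of all loci were called lower.

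**Figure D1:**
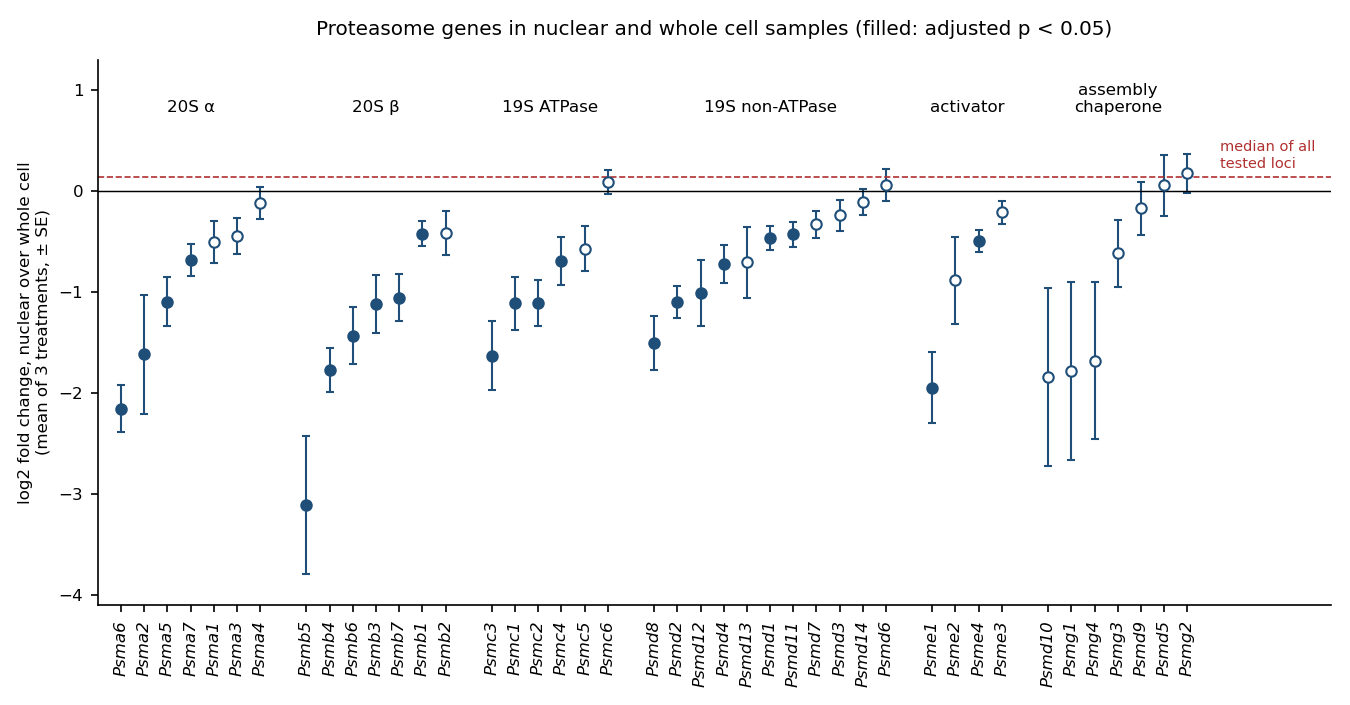
Log2 fold change of each tested member between nuclear and whole cell samples (vertical axis, limma on log2(normalised count + 1), averaged over control, Scr and *miR-92b*, bars ± SE) by role in the proteasome (horizontal axis), with filled points for adjusted p below 0.05. Of 42 members, 22 are filled, all of them below 0, and the dashed line marks the median of all tested loci at 0.14.

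Each of the 20S rings was lower in part. Of the 7 α subunit genes 4 were called lower (median of the 7, -0.68), and of the 7 β subunit genes 6 (median -1.12). The largest difference among the α genes was that of *Psma6*, at chr12:55384222-55420638 (mm10). In nuclear samples *Psma6* had normalised counts of 70.8, 68.6 and 63.3 in control, 83.8, 78.3 and 137 with Scr, and 116, 127 and 69.4 with *miR-92b*. In whole cell samples it had 448, 472 and 391 in control, 259, 358 and 357 with Scr, and 330.2, 253 and 931 with *miR-92b*. Every nuclear sample lay below every whole cell sample, whatever the treatment. The log2 fold change was -2.16 ± 0.23 (SE, adjusted p from limma 2.1e-07).

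*Psma2* had nuclear counts from 0 to 105, with a median of 91.4, and whole cell counts from 95.1 to 276, with a median of 147. The 0 was that of nuclear Scr sample 2, and the ranges overlapped. The log2 fold change of -1.61 ± 0.59 (adjusted p from limma 0.040) was -0.75 and no longer called without the 3 samples that stood apart, and the call was lost under 14 of the 31 other settings, among them that without any single nuclear *miR-92b* sample. *Psma5* (-1.10 ± 0.24) and *Psma7* (-0.68 ± 0.16) were lower as well. *Psma1*, *Psma3* and *Psma4* were not called, with log2 fold changes of -0.51, -0.45 and -0.12.

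Among β genes, *Psmb5*, which encodes the subunit with chymotrypsin-like activity, differed most. Nuclear samples held 5.78, 29.6 and 12.7 normalised counts in control, 7.62, 9.21 and 0 with Scr, and 27.3, 1.68 and 10.3 with *miR-92b*, from at most 22 reads. Whole cell samples held 59.97, 137 and 60.02 in control, 84.2, 25.3 and 113 with Scr, and 35.1, 65.7 and 178 with *miR-92b*. Control sample 2 and *miR-92b* sample 1 of the nuclear samples lay above the lowest whole cell Scr sample, but within each treatment the groups did not overlap. The log2 fold change of -3.11 ± 0.68 (adjusted p from limma 0.0012) rests on few nuclear reads and on a locus that also carries the microRNA gene *Mir686*.

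*Psmb4*, a structural β subunit, ranged from 87.4 to 197 normalised counts in nuclear samples (median 118) and from 277 to 978 in whole cell samples (median 389.6). No nuclear sample reached a whole cell one, and the log2 fold change was -1.77 ± 0.22 (adjusted p from limma 1.2e-06). Its locus is listed as chr3:94658961-94944758, 99.6 times as long as the gene in GENCODE, although no other symbol is attached to it. *Psmb6*, the subunit with caspase-like activity, ranged from 64.6 to 375 in nuclear (median 75.3) and from 154 to 488 in whole cell samples (median 238). The 375 was nuclear Scr sample 2, and the other 8 nuclear samples were at or below 118 counts. Its log2 fold change was -1.43 ± 0.28 (adjusted p from limma 4.7e-04).

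*Psmb3* had nuclear counts from 56.4 to 131 (median 91.4) and whole cell counts from 47.1 to 488 (median 247). The ranges overlapped because whole cell Scr samples 1 and 3 were at 66.6 and 47.1. The log2 fold change was -1.12 ± 0.29 (adjusted p from limma 0.0047). *Psmb7*, the subunit with trypsin-like activity (-1.06 ± 0.23), and *Psmb1* (-0.42 ± 0.12) were also called lower, the latter not without the 3 samples that stood apart. *Psmb2* was not (-0.42 ± 0.22, adjusted p from limma 0.15). All 3 catalytic subunits of the core were therefore among the genes lower in nuclear samples.

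**Figure D2:**
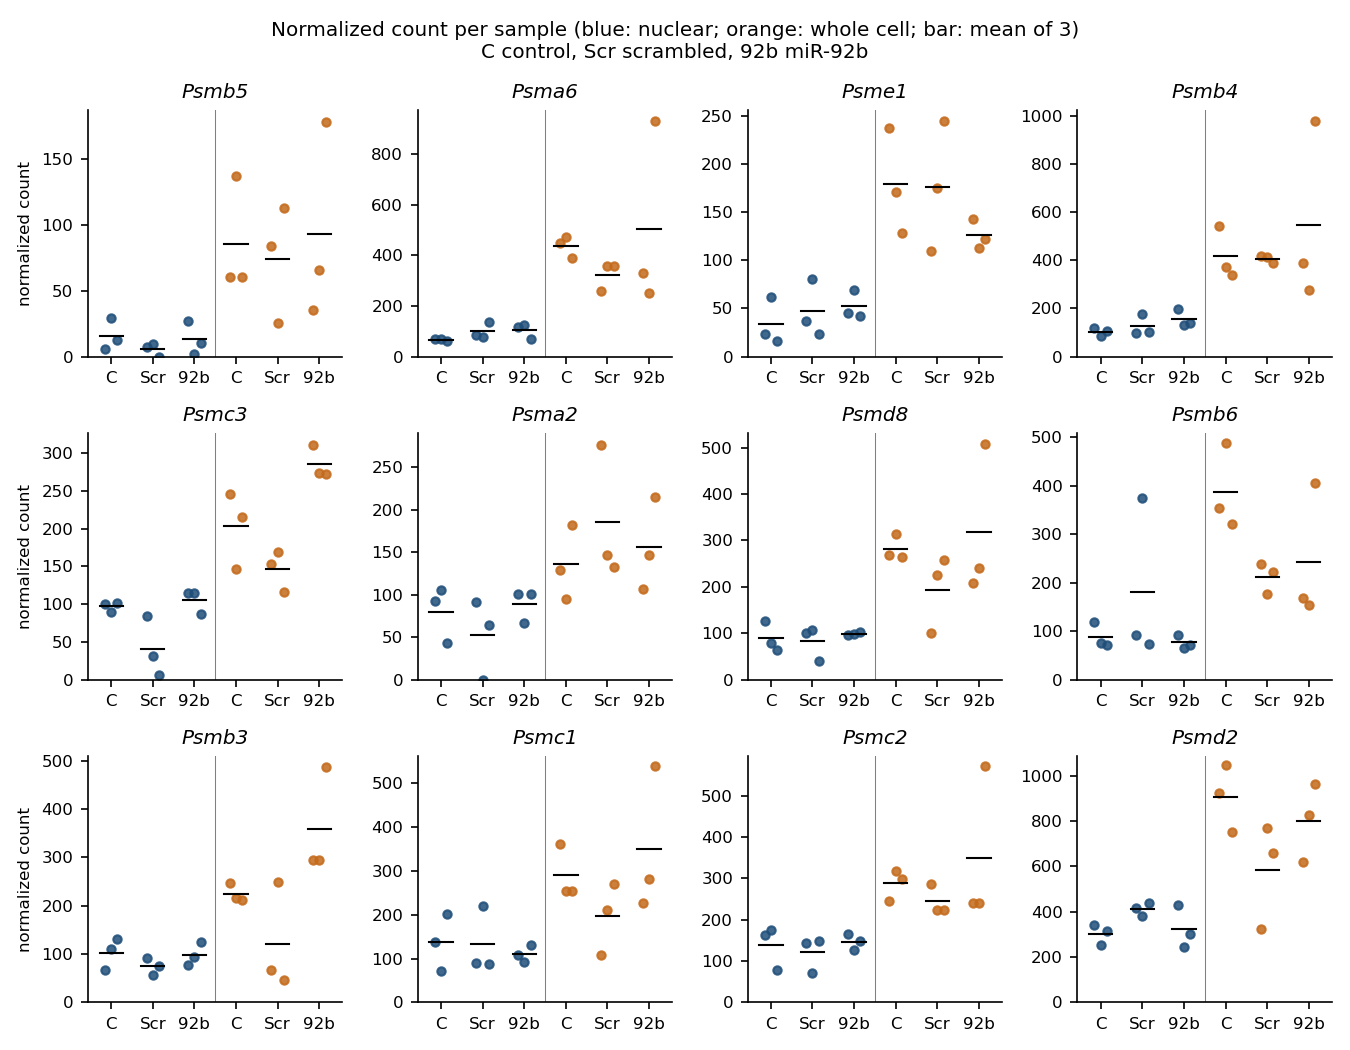
Normalised count in each sample (points, linear axis from 0) and mean of each group of 3 (bars) for the 12 called members with the largest log2 fold change between compartments, nuclear in blue and whole cell in orange. Whole cell *miR-92b* sample 3 is the highest point for *Psma6* (931) and *Psmb4* (978), and *Psmb6* has 1 nuclear Scr sample at 375.

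Of the 6 ATPase genes of the 19S base 4 were called lower, with a median of -0.90 over the 6. *Psmc3* ranged from 6.31 to 115 normalised counts in nuclear samples (median 90.1) and from 115.5 to 311 in whole cell samples (median 216), at a log2 fold change of -1.63 ± 0.34 (adjusted p from limma 7.3e-04). The groups did not overlap, and the lowest nuclear values, 31.1 and 6.31, were Scr samples 2 and 3, the nuclear samples that stood apart. Without the 3 samples that stood apart *Psmc3* was still called in this comparison averaged over treatments. *Psmc1* ranged from 72.6 to 221 in nuclear (median 109) and from 109 to 539 in whole cell samples (median 254), and its log2 fold change was -1.11 ± 0.26 (adjusted p from limma 0.0023). Its ranges overlapped.

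*Psmc2* ranged from 70.2 to 176 in nuclear (median 147.5) and from 223 to 571 in whole cell samples (median 246), with no overlap and a log2 fold change of -1.11 ± 0.23 (adjusted p from limma 6.4e-04). *Psmc4* was called at -0.69 ± 0.24 (adjusted p from limma 0.030), but 8 of the 31 other settings lost it. *Psmc5* was not called (-0.57 ± 0.22, adjusted p from limma 0.055). *Psmc6*, of the same ATPase ring, was not called on counts, although its mean FPKM was lower in nuclear samples (20.1 ± 2.03 against 33.7 ± 13.7, SD, n = 9). Its normalised counts were 775.5, 774 and 1035 in nuclear control and 656, 807 and 632 in whole cell control. With Scr it had 923, 701 and 659.5 in nuclear and 769, 835 and 917 in whole cell samples, and with *miR-92b* 919, 751 and 707 against 686, 598 and 909. The log2 fold change was 0.09 ± 0.12 (adjusted p from limma 0.59).

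The 11 other genes of the 19S particle had a median of -0.47, and 6 were called lower. *Psmd8*, a subunit of the lid, ranged from 39.1 to 126 in nuclear (median 98.3) and from 101 to 508 in whole cell samples (median 257), with 1 whole cell Scr sample inside the nuclear range. The log2 fold change was -1.51 ± 0.27 (adjusted p from limma 1.4e-04). *Psmd2*, a scaffold of the base that docks ubiquitin receptors, ranged from 244 to 439 (median 339) and from 322 to 1046 (median 769.6), and its log2 fold change was -1.10 ± 0.16 (adjusted p from limma 1.6e-05). A single whole cell Scr sample, at 322, lay within the nuclear range of *Psmd2*. The lid genes *Psmd12* (-1.01 ± 0.33, a call lost without whole cell Scr sample 2 and without the 3 samples that stood apart) and *Psmd11* (-0.43 ± 0.12, lost under quantile normalisation), the ubiquitin receptor gene *Psmd4* (-0.72 ± 0.19) and the scaffold gene *Psmd1* (-0.47 ± 0.12, lost on FPKM) were called lower too. *Psmd14*, the deubiquitinase of the lid, was not called (-0.11 ± 0.13), nor was *Psmd6* (0.06 ± 0.16).

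Of 4 activator genes 2 were called lower. *Psme1*, an interferon-induced cap subunit, had 23.1, 61.8 and 15.8 normalised counts in nuclear control against 238, 170.3 and 128 in whole cell control. With Scr the values were 36.6, 80.6 and 24.0 against 109.6, 175 and 244, and with *miR-92b* 45.1, 68.7 and 42.4 against 143, 113 and 122. All nuclear samples lay below all whole cell samples, and the log2 fold change was -1.95 ± 0.35 (adjusted p from limma 1.9e-04). *Psme4*, the large nuclear activator, differed less (-0.49 ± 0.11, adjusted p from limma 0.0014, but 0.21 on FPKM), from 1032 to 1440.4 in nuclear and from 1449 to 2782 in whole cell samples. *Psme2*, the partner of *Psme1*, and *Psme3*, which encodes the nuclear cap, were not called (-0.88 ± 0.43 and -0.21 ± 0.11).

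None of the 7 assembly chaperone genes was called by limma, and 2 of them had an unadjusted p below 0.05, as had 42.04% of all loci. Their range was wide: *Psmd10*, *Psmg1* and *Psmg4* were at -1.84 ± 0.88, -1.78 ± 0.88 and -1.68 ± 0.77, while *Psmg2* was at 0.17 ± 0.19 and *Psmd5* at 0.05 ± 0.30. The first 3 had low counts, with *Psmd10* between 0 and 15.1 in nuclear and between 0 and 80.9 in whole cell samples.

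The compartments were also compared within each treatment. In control, 8 members were called lower and none higher (6.91% of all loci were called lower). With Scr 3 were called lower (3.70%), namely *Psma6*, *Psmb4* and *Psmc3*, and with *miR-92b* 8 (6.63%). The call of *Psmc3* with Scr was lost without whole cell sample 1 or 2, with edgeR, with arrayWeights and in a fit of the Scr groups alone. Its lowest nuclear values were those of Scr samples 2 and 3, which stood apart. Without the 3 samples that stood apart, which leaves 1 nuclear Scr sample, *Psmc3* was not called with Scr either. *Psma6* and *Psmb4* were called in all 3 treatments. The call of *Psma6* with Scr was lost without nuclear sample 2, whole cell sample 2 or whole cell sample 3, and that of *Psmb4* with *miR-92b* without whole cell sample 3. In a fit of the *miR-92b* groups alone neither was called, and on FPKM *Psmb4* was not called with Scr or *miR-92b*. The median log2 fold change of the members was -0.86 in control, -0.39 with Scr and -0.66 with *miR-92b*, and that of all loci 0.06, 0.01 and 0.26. Without the 3 samples that stood apart the medians of the members were -0.86, -0.46 and -0.49, and those of all loci 0.06, 0.18 and 0.12. The counts per treatment moved with the fit and the samples: leaving out any 1 of the 18 samples, which share 1 fit, gave 5 to 14 in control, 1 to 8 with Scr and 2 to 13 with *miR-92b*. The shares of all loci called lower moved with them, from 4.33% to 9.08%, from 1.66% to 6.31% and from 3.41% to 7.79%. The count in control was 5 without whole cell control sample 1 or 2 (4.37% and 4.33% of loci) and 14 without whole cell *miR-92b* sample 3 (9.08%). With Scr it was 6 without nuclear sample 1 (5.24%), 1 without whole cell sample 2 (2.26%) and 8 without whole cell *miR-92b* sample 3 (6.31%), and 2 without whole cell sample 1 or 3 (2.003% and 1.66%). With *miR-92b* it was 3 without nuclear sample 1 or 2 (4.56% and 4.29%), 2 without whole cell sample 3 (3.41%), and 13 without whole cell sample 2, of which 12 were lower and 1 higher (7.79% and 9.93%). Without the 3 samples that stood apart the counts were 20, 2 and 4, and the shares of all loci called lower were 11.02%, 2.79% and 4.85%, so that more calls in control went with more calls over all loci. Nuclear Scr samples 2 and 3 had cytoplasmic marker sums of 20326 and 28348, against 5788 to 11219 in the other 7 nuclear samples, and the part of this in the Scr values was not tested.

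All nuclear samples were below all whole cell samples for 28 members in control (19.4% of all loci), 12 with Scr (11.6%) and 23 with *miR-92b* (16.5%). All were above for 1 member in control, *Psmd6* (18.8% of all loci), and for 0 with Scr (10.7%) and 0 with *miR-92b* (19.7%). All nuclear samples were below in each of the 3 treatments for 8 members (5.90% of all loci): *Psma5*, *Psma6*, *Psmb4*, *Psmb5*, *Psmc2*, *Psmc3*, *Psme1* and *Psme4*. When all 9 nuclear samples were set against all 9 whole cell samples, 6 members did not overlap (4.40% of all loci), those just named without *Psma5* and *Psmb5*. The fold change was below 0 in all 3 treatments for 31 members and above 0 in all 3 for none, against 25.9% and 32.6% of all loci. Whether the difference between compartments itself differed between treatments was tested as an interaction, and no member passed in any of the 3 tests.

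The share of reads that fell on the 48 member loci was also lower in nuclear samples. It was 0.169% (95% Wilson interval 0.166 to 0.173) to 0.199% (0.195 to 0.204) in nuclear samples and 0.238% (0.233 to 0.2425) to 0.330% (0.326 to 0.333) in whole cell samples, where intervals cover counting error only. The highest whole cell sample, *miR-92b* sample 3, also had the highest cytoplasmic marker sum (314189). The part of this in the members' values was not tested. Without that sample the whole cell range was 0.238% to 0.295%.

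**Figure D3:**
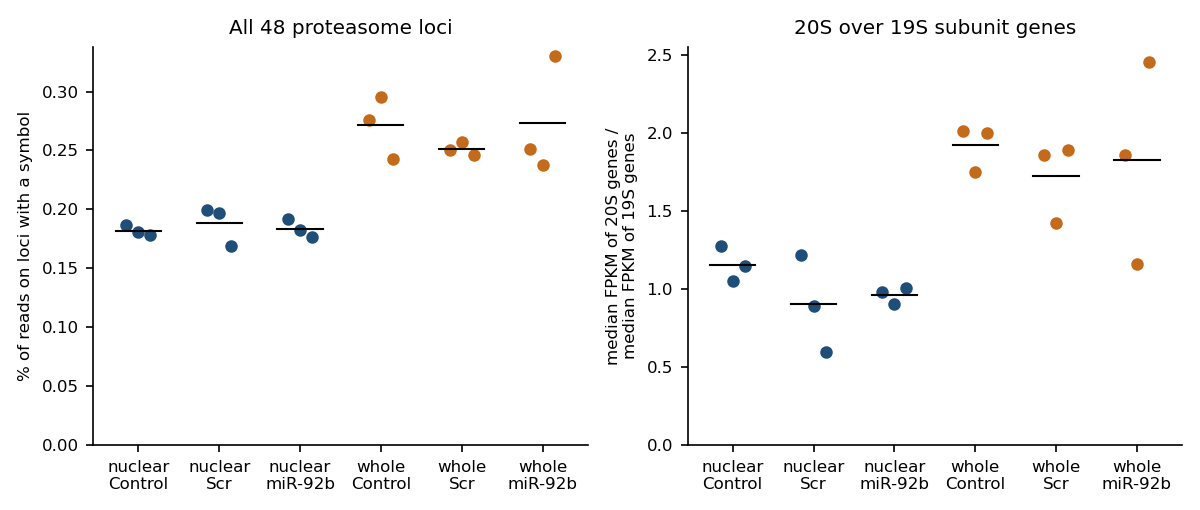
Share of the reads on symbol-bearing loci that fell on the 48 member loci (left, in %) and ratio of the median FPKM of 14 20S genes to that of 17 19S genes (right), for each sample (points) with the mean of 3 (bars). Nuclear samples, in blue, lie between 0.169% and 0.199% and whole cell samples, in orange, between 0.238% and 0.330%.

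Levels of different genes were compared in FPKM, which is per transcript length. Over the 18 samples *Psma3* had the highest mean among the α genes and *Psma2* the lowest. *Psma3* stood at 71.9 ± 19.7 FPKM (SD, n = 9) in whole cell and 52.3 ± 7.41 in nuclear samples, and *Psma2* at 22.0 ± 8.79 and 6.35 ± 3.38. Among β genes *Psmb1* was highest (87.5 ± 33.5 in whole cell, 34.1 ± 6.86 in nuclear) and *Psmb5*, at a locus shared with *Mir686*, lowest (15.6 ± 10.1 and 1.87 ± 1.70). These extremes of each ring lay apart by more than their spread, whereas *Psmb1* and *Psma3* did not in whole cell samples.

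In the 19S particle the highest were *Psmc6* among ATPase genes (values above) and *Psmd1* among the others (40.8 ± 14.4 FPKM in whole cell, 31.3 ± 9.64 in nuclear). The locus of *Psmd1* also carries *Armc9* and *Gm21972*. Among the others with a locus of 1 symbol, *Psmd14* was highest (36.85 ± 13.1 and 27.0 ± 5.40). The lowest were *Psmc3* (15.8 ± 5.17 and 5.40 ± 2.94) and *Psmd12* (10.7 ± 3.96 and 5.37 ± 1.73). *Psme4* led the activators at 60.04 ± 19.2 FPKM in whole cell samples, while *Psme1* and *Psme2*, at 26.1 ± 9.15 and 25.2 ± 23.3, were last and did not differ beyond their spread. Assembly chaperone genes ranged in whole cell samples from 18.7 ± 8.73 for *Psmg2* down to 3.95 ± 2.74 for *Psmd10*.

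**Figure D4:**
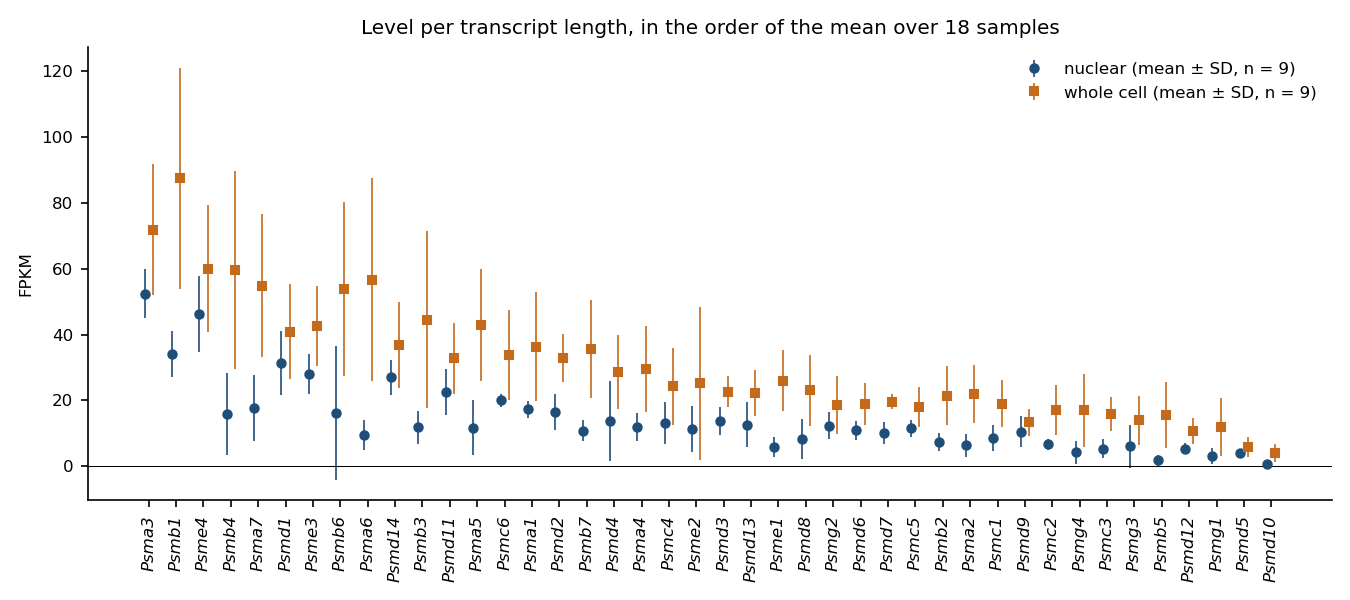
FPKM (vertical axis, level per transcript length) of the 42 tested members in nuclear (circles) and whole cell (squares) samples, mean ± SD over 9 samples each, ordered by the mean over 18 samples. *Psma3* comes first and *Psmd10* last, and every whole cell mean lies above the nuclear mean.

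The median FPKM of the 20S genes was 1.82 ± 0.37 times (SD, n = 9) that of the 19S genes in whole cell samples and 1.01 ± 0.20 times in nuclear samples. With normalised counts divided by the annotated length of the transcript the ratios were 1.54 ± 0.27 and 1.14 ± 0.24. The ranges of whole cell (1.16 to 2.46) and nuclear samples (0.598 to 1.27) overlapped on the FPKM scale, as did those per annotated length (1.295 to 2.05 and 0.650 to 1.43), and the ratio was not tested. Without the 3 samples that stood apart the FPKM ranges were 1.16 to 2.01 and 0.903 to 1.27, and still overlapped.

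FPKM fell by more than the counts between the compartments, and on log2(FPKM + 0.1) limma called 32 members lower and none higher, with a median of -1.20. In that fit 16.1% of all loci were called lower and 8.92% higher, and the median of all loci was 0.02. The quotient of a sample's normalised count and FPKM, scaled on loci of 1 gene with 1 transcript, gives the transcript length that the authors' software implied. It was available for 36 members with at least 10 reads in each sample. The median was longer in nuclear samples for 26 of them (72.2%) and for 59.0% of 8999 loci. The shift was largest for *Psma7*, from a median of 1219 bases in whole cell to 3079 in nuclear samples. *Psmb1* and *Psmb7* had longer values in every nuclear than in every whole cell sample, 2 members of 36, against 3.66% of loci. By construction, a longer implied length lowers the FPKM at the same count.

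Within the 42 members the less abundant ones had the more negative fold changes. Spearman's rho between mean normalised count and log2 fold change was 0.57 over the members and -0.23 over all 15579 loci, across genes that share the same 18 libraries. With annotated transcript length it was 0.37 over the members and 0.20 over 9889 single-gene loci. Member transcripts were short, with a median of 1435 bases against 3038.

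The pulldown comparison, *miR-92b* against Scr, asked whether *miR-92b* held an mRNA more than a scrambled RNA did. No member was called in nuclear samples, where 4 members (and 4.41% of all loci) had an unadjusted p below 0.05 in limma and edgeR and DESeq2 called none (0% of all loci were called by limma). In whole cell samples no member was called by limma or edgeR (0.00642% of loci were called by limma), 3 had an unadjusted p below 0.05 (9.72% of all loci did), and DESeq2 called 1 lower, *Psmg2*, among 176 loci. The median log2 fold change of the members stood at 0.06 in the nucleus and 0.17 in whole cell samples, and that of all loci at 0.11 and -0.01. The median standard error of a member was 0.40 on the log2 scale.

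**Figure D5:**
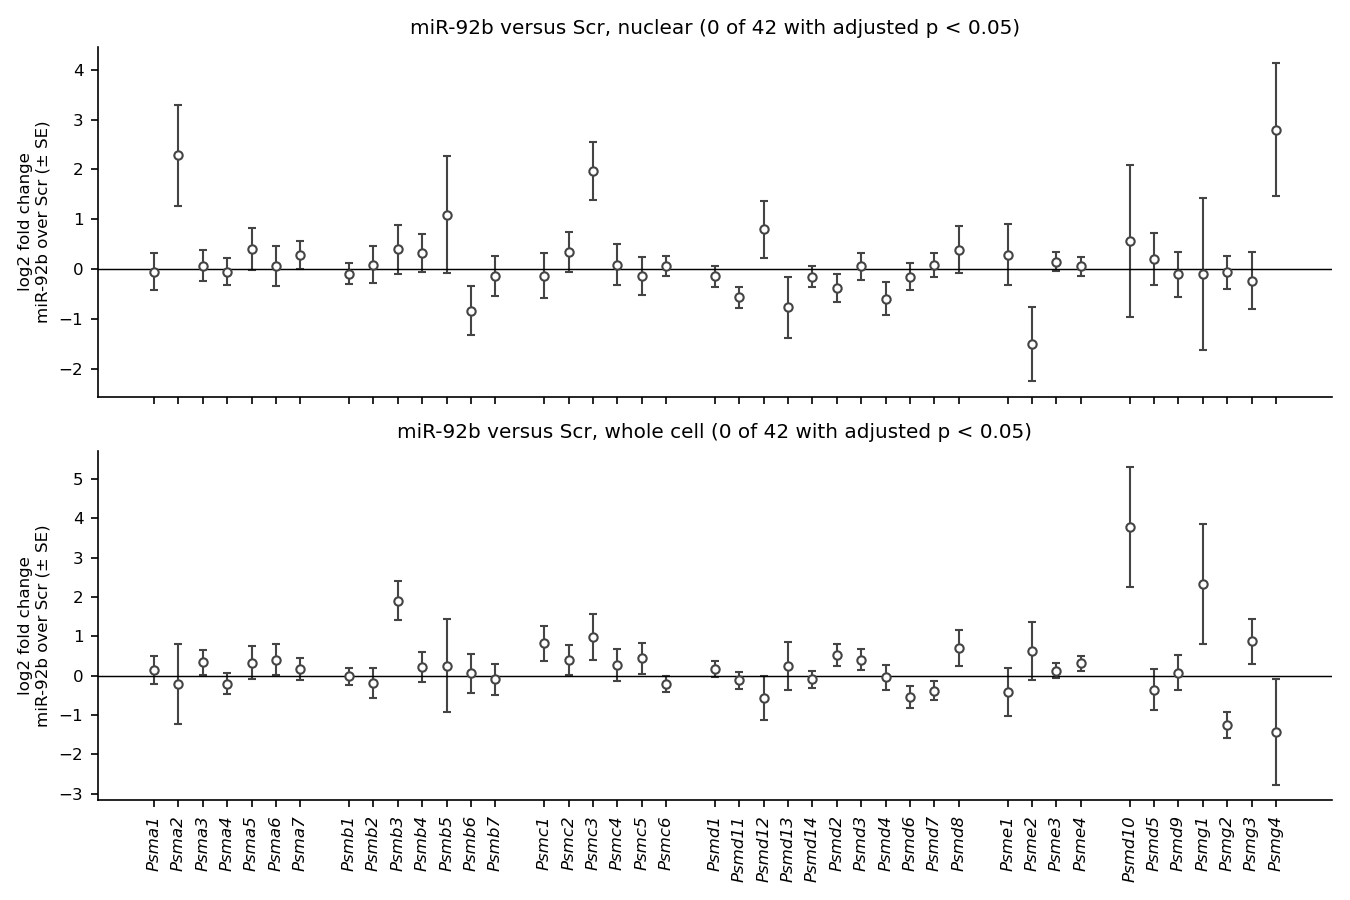
Log2 fold change of the 42 tested members between *miR-92b* and Scr (vertical axes, limma, ± SE, 3 samples a group) in nuclear (top) and whole cell samples (bottom), in the order of the roles. No point is filled, since no member had an adjusted p below 0.05.

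In nuclear samples the largest positive values were those of *Psmg4* (2.80 ± 1.34), *Psma2* (2.28 ± 1.02) and *Psmc3* (1.97 ± 0.58), each with an adjusted p from limma of 0.99996. *Psmc3* had 115, 115 and 87.5 normalised counts with *miR-92b* and 83.8, 31.1 and 6.31 with Scr. All 3 *miR-92b* samples were above all 3 Scr samples, and the spread lay in the Scr group. Its value was 0.32 without the samples that stood apart, but 2.79 and called (1 member, 0.315% of all loci) without Scr sample 1. *Psmg4* had 21.9, 21.9 and 19.3 against 30.5, 0 and 0, and *Psma2* 101, 66.3 and 100.3 against 91.4, 0 and 64.3. The zeros were in Scr samples 2 and 3, which stood apart, and against Scr sample 1 alone the fitted values of *Psmg4* and *Psma2* were -0.52 and -0.06.

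The largest negative values in nuclear samples were those of *Psme2* (-1.50 ± 0.74), *Psmb6* (-0.84 ± 0.49) and *Psmd13* (-0.77 ± 0.61). *Psme2* had 28.7, 27.6 and 23.1 normalised counts with *miR-92b* and 27.4, 117 and 136 with Scr, so that Scr sample 1 lay among the *miR-92b* samples. For *Psmb6* the Scr values were 91.4, 375 and 73.1 against 92.9, 64.6 and 72.0. *Psmd13* had 94.2, 121 and 75.9 against 60.9, 314 and 226, and its fitted value was 0.64 against Scr sample 1 alone. In the nuclear samples, *Psmc3* was the member that lay higher in every *miR-92b* sample (6.28% of all loci did) and *Psmd11* the one that lay lower (3.81%).

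In whole cell samples the largest positive values were those of *Psmd10* (3.79 ± 1.53, adjusted p from limma 0.45), *Psmg1* (2.34 ± 1.53, 0.64) and *Psmb3* (1.91 ± 0.50, 0.26). *Psmb3* had 295, 296 and 488 normalised counts with *miR-92b* and 66.6, 249.1 and 47.1 with Scr, and control samples were at 247, 215 and 211. The 3 *miR-92b* samples were the highest of the 9, and the low values were again in the Scr group. Without Scr sample 2 its value was 2.62 and was called (1 member, 0.0834% of all loci). *Psmd10* had 67.5, 25.7 and 80.9 against 0, 55.7 and 0, and *Psmg1* 115, 44.3 and 164 against 0, 55.7 and 117, with overlap in both. Beside *Psmb3*, the members *Psmc3* and *Psmg3* were higher in every *miR-92b* sample, 3 of 42 against 4.32% of all loci.

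The largest negative values in whole cell samples were those of *Psmg4* (-1.43 ± 1.34, adjusted p from limma 0.76), *Psmg2* (-1.26 ± 0.33, 0.26) and *Psmd12* (-0.57 ± 0.57, 0.78). *Psmg2*, an assembly chaperone of the α ring, had 95.4, 186 and 99.4 normalised counts with *miR-92b* and 306, 281.5 and 288 with Scr, with no overlap. Control samples were at 247, 131 and 187, below every Scr sample and overlapping the *miR-92b* samples. It was the single member that lay lower in every *miR-92b* sample (4.60% of all loci did). *Psmg4* had 38.7, 1.43 and 42.1 against 31.6, 27.3 and 87.2, and *Psmd12* 97.2, 77.1 and 158 against 84.2, 241 and 191. Groups overlapped for both.

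Against untransfected control no member passed with limma, edgeR or DESeq2 in any of 4 comparisons. For *miR-92b* no member had an unadjusted p below 0.05 in nuclear (0% of all loci were called by limma) or in whole cell samples (0.00642%), against 0.321% and 4.69% of all loci. For Scr 3 members in nuclear and 4 in whole cell samples had one, as had 5.88% and 5.09% of all loci (0% and 0% of loci were called). The comparisons of *miR-92b* and of Scr with control share the control samples. In the tests of whether a treatment difference itself differed between compartments, no member was called for *miR-92b* against Scr (0.00642% of loci were), for *miR-92b* against control (0%) or for Scr against control (0%), and 4, 0 and 4 members had an unadjusted p below 0.05, against 7.21%, 1.86% and 5.28% of all loci.

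The other genes of the pathway were described with the same fit. Of 38 tested loci 15 were lower and 3 higher in nuclear than in whole cell samples, against 15.8% and 15.3% of all loci. Their median log2 fold change was -0.39. Among genes that supply ubiquitin 4 of 6 were lower, among them *Rps27a* (-2.25 ± 0.23), which also encodes a ribosomal protein, *Ubb* (-1.72 ± 0.18) and the activating enzyme gene *Uba1* (-0.93 ± 0.15). Of 6 shuttle factors, which carry tagged proteins to the proteasome, 5 were lower, led by *Rad23b* (-1.29 ± 0.12).

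Among 11 proteasome partners *Pomp*, the maturation factor of the core (-0.59 ± 0.21), *Uchl5*, a deubiquitinase (-1.52 ± 0.54), and *Txnl1* (-0.42 ± 0.15) were lower, and *Akirin2*, which brings proteasomes into the nucleus, was higher (0.36 ± 0.13). Of the unfoldase p97 and its cofactors *Vcp* itself (-0.44 ± 0.11) and *Nploc4* (-0.99 ± 0.16) were lower and *Nsfl1c* was higher (0.53 ± 0.12). Of 6 regulators *Nfe2l1* was lower (-0.60 ± 0.12) and *Nfe2l3* higher (1.74 ± 0.62). The immunoproteasome genes *Psmb8* and *Psmb10* were not called (0.64 ± 0.65 and -2.18 ± 0.87), and *Psmb9* was too low to test. In *miR-92b* against Scr none of the 38 loci was called by limma in nuclear or in whole cell samples (0% and 0.00642% of all loci were). In each, 3 of the 38 had an unadjusted p below 0.05, against 4.41% of all loci in nuclear and 9.72% in whole cell samples.

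As other complexes of many subunits, 76 of 80 cytosolic ribosomal protein loci were lower in nuclear samples with a median log2 fold change of -2.34, as were all 8 genes of the chaperonin CCT with a median of -0.84. Of 78 mitochondrial ribosomal protein loci 18 were lower and 4 higher, with a median of -0.34, where 15.8% of all loci were lower and 15.3% higher. The proteasome, at -0.70, lay between these, and the difference between complexes was not tested.

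The 6 members below the level for testing were *Psma8*, the testis form of an α subunit, at 0 in all 18 samples, *Psmb11*, the thymus form of a β subunit, at 1.52 normalised counts at most, and second loci of *Psmc4*, *Psmd5*, *Psmd9* and *Psmd10*. The second locus of *Psmc4* was listed at up to 44388 FPKM for a normalised count of 16.4, so FPKM levels were taken from the first locus of a gene alone. The 4 pseudogene loci named after members had mean normalised counts of 0 to 0.676. Of the 44 first loci, 9 were listed as over 2 times as long as the gene and 4 carry symbols of other genes, *Psmb5*, *Psmd1*, *Psme3* and *Psmg3*, and reads of a member and such a neighbour cannot be told apart there.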

How the data were processed

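The members and gene lists were chosen with earlier results of these data known. The authors made directional libraries from oligo-dT selected RNA. Per the submitters' processing notes and the study's methods, they used bcl2fastq 2.17 and Trimmomatic 0.30, then TopHat2 against mm10 and Cufflinks. No version of the last pair and no strand setting for counting was given in the sources used here. The deposited normalized counts are a signal, reads per locus over 1 size factor per sample, and the deposited FPKM are relative to transcript length and mapped reads. Of 635205 values above 0, 99.95% were whole multiples of 1 read within 0.02 reads, so reads were recovered for edgeR and DESeq2. The authors' comparison tables (fold changes, p-values) were not used.

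Two-sided tests came from limma 3.58.1 with a trended prior variance, fitted to all 6 groups at once on log2(normalized count + 1), with Benjamini-Hochberg adjustment over 15579 loci with a symbol and a mean of at least 10. Reads without a symbol (4.51% to 15.3%) were left out. Depth was 3752991 to 22920038 reads per sample on loci with a symbol, and 95% Wilson intervals cover counting error only. Samples of a group differed by more than counting error, with a chi-square per degree of freedom of 5.73 to 117.8 between pairs of them. Alternatives were edgeR 4.0.16 and DESeq2 1.42.0, pseudocounts of 0.5 and 8, filters of 1, 50 or none, log2(FPKM + 0.1), median and quantile scaling, 2-group fits, arrayWeights, a replicate block, loci of 1 symbol and each sample left out. A fit without the 3 samples that stood apart and the implied length were added after seeing the data. Seed matches used GENCODE M21 (GRCm38) and promoters RefSeq GRCm38.p6. Named in full were up to 12 called members per direction by log2 fold change, the 3 largest values each way in *miR-92b* against Scr, the highest and lowest FPKM of each role, and untested members. Code was tested on simulated data (R 4.3.3). Some genes of these lists are not reported here.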

Additional observations from a re-analysis of the deposited data

How the results depend on the processing

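For the comparison averaged over treatments, 20 to 32 members were called lower under 14 other settings (7.55% to 22.55% of all loci) and 20 to 24 when single samples were left out (13.97% to 16.7%), with none reversed. In control, the count of 8 (6.91% of all loci called lower) became 21 (11.6%) in a fit of the 2 groups, 23 (14.5%) with arrayWeights and 20 (11.02%) without the 3 samples that stood apart, and 5 to 7 with 1 sample of its groups left out but 14 (9.08%) without whole cell *miR-92b* sample 3. With Scr, the count of 3 (3.70%) became 6 (4.19%) with a pseudocount of 8, 5 (3.24%) on FPKM, 5 (4.62%) with DESeq2, and 1 to 6 with 1 sample of its groups left out but 8 (6.31%) without whole cell *miR-92b* sample 3. With *miR-92b*, the count of 8 (6.63%) became 5 (2.82%) with no filter, 3 (2.97%) in a fit of the 2 groups, 14 (9.02%) with DESeq2, 4 (4.85%) without the 3 samples that stood apart, and 2 to 13 with any 1 sample left out, where 1 of the 13 was higher. In *miR-92b* against Scr, leaving out 1 sample gave 0 to 1 called member in nuclear (*Psmc3*, without Scr sample 1, 0.315% of all loci) and in whole cell samples (*Psmb3*, without Scr sample 2, 0.0834%), and DESeq2 called 1 in whole cell samples (1.13% of all loci). Scr against control in nuclear samples gave 0 to 1 (*Psmc3*, without Scr sample 1, 0.443%). Without the 3 samples that stood apart, which leaves 1 nuclear Scr sample whose spread is taken from the other groups, *Psmd13* turned to 0.64, *Psma2* to -0.060 and *Psmg4* to -0.52 in nuclear *miR-92b* against Scr. The seed match count of 0 became 1 with 6 bases and 1 in coding sequence. The cause of these changes was not tested. Replicate numbers did not pair samples (correlations of same-numbered samples from -0.04 to 0.11), and with a replicate block 23 members were called lower in the averaged comparison. Genes such as *Psmb5* and *Psmd10* had few reads in nuclear samples, and the part of depth in their fold changes was not tested.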
